A study of Homo sapiens with 7 samples.

Results

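The genes described are the human cytochrome P450 genes, taken as the protein-coding genes of the RefSeq GRCh38 gene table whose symbol starts with CYP followed by a digit. Of 19970 protein-coding genes, 54 were used. They were read in lists of PPARα ChIP-seq peaks, sites where an antibody to PPARα enriched DNA over the local background. A peak was given to a gene when its summit lay in the gene's span or within 50 kb of it, and 302 of the 152915 peaks in the 6 lists fell in at least 1 such CYP window. Merging overlapping peaks of all libraries gave 192 regions in these windows, of 92292 regions in all.

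Cytochrome P450 enzymes are heme monooxygenases that insert an oxygen atom into drugs, steroids, bile acid precursors, fatty acids and fat-soluble vitamins, and the liver is the main site of many of these reactions. PPARα is a nuclear receptor for fatty acids and fibrate drugs that binds DNA with RXR and drives lipid oxidation genes in the liver, among them P450 genes of fatty acid oxidation. The estrogen receptors ERα and ERβ are nuclear receptors of the same superfamily, and their DNA elements are built from the same core hexamer, arranged differently.

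The cells were HepG2, an established line from a human hepatocellular carcinoma, and every group was transfected with a PPARα vector, so the receptor was not at its native level. For every library used, the labels give a time of 48 h after transfection. PPARα cells received 10 µM of the PPARα agonist WY14643 for 2 h. PPARα+ERα cells also carried an ERα vector and were exposed for 45 min to 10 nM of the ERα agonist PPT before the 2 h of WY14643, and PPARα+ERβ cells carried an ERβ vector and had 45 min of 10 nM DPN, an ERβ agonist, before it. Each group had 2 libraries, with a peak list of its own for each library. The estrogen receptor, its vector and its agonist changed together, so their shares in a difference cannot be told apart. Nothing in the labels says that the 2 libraries came from separate cultures, so an SD or p measures the spread between libraries, which may be technical. Lists of peaks carry no expression, and the cell line was not checked against markers.

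The promoters of the CYP genes are shown first, because the peaks described after them lay almost entirely elsewhere. RefSeq promoter windows of GRCh38.p14 (250 bases before to 50 after a start) were at hand for 40 of the 54 genes, in 53 windows. Only 1 of these 40 genes, CYP17A1, had a window overlapped by a peak of any library, which is 2.50%, beside 1.87% of all genes with a window. CYP17A1 encodes the hydroxylase and lyase that leads steroids toward androgens. Its peak was in PPARα+ERα library 2 alone (chr10:102837498-102837819 in hg38), with a summit 0.245 kb before the start, a fold of 7.70 and 12 fragments. The 250 bases before the start (chr10:102837414-102837663, minus strand) hold the hexamer AGGTCA in its reverse form, TGACCT, in capitals.
CYP17A1: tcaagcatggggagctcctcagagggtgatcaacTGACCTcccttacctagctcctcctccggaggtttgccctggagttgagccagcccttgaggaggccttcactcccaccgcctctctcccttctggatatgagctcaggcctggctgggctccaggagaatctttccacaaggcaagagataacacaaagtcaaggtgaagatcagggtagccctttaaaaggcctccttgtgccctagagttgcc

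AGGTCA, the core hexamer of PPAR and ER elements, was searched on both strands in every window. At least 1 match stood in the windows of 14 of the 40 CYP genes (35.0%), beside 15.3% of 15812 genes with a window. CYP17A1, CYP21A2, CYP2S1, CYP3A4, CYP3A5, CYP3A7, CYP3A7-CYP3A51P and CYP4V2 had a match but no shared peak of a group's 2 libraries within 50 kb. Only the CYP17A1 window was itself overlapped by a peak, and a link between match and peaks was not tested. Genes with a match and with a shared peak of a group's 2 libraries somewhere in their 50 kb window included the following, with the match in capitals: CYP2E1 at chr10:133527165-133527204, CYP19A1 at chr15:51318580-51318619, CYP2B6 at chr19:40991101-40991140, CYP4X1 at chr1:47023463-47023502 and CYP27C1 at chr2:127220524-127220549.
CYP2E1: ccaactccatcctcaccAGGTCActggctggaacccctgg
CYP19A1: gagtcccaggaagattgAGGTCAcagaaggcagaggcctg
CYP2B6: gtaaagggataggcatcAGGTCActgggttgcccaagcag
CYP4X1: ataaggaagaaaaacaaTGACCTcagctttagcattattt
CYP27C1: ggtTGACCTtaaaacttggtggtttc

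The full PPAR element, written AGGTCANAGGTCA, matched no CYP window and the windows of 5 of all genes (0.0316%). The estrogen response element GGTCANNNTGACC matched no CYP window and those of 8 of all genes. Each full element contains letters of the AGGTCA hexamer, and a missing match says only that these exact letters were not in the windows. A string read by HNF4A, a liver nuclear receptor, was picked after several strings had been tried: CAAAGTCCA stood in the windows of 6 of 40 CYP genes (15.0%), beside 0.481% of all genes. These were CYP2A6, CYP2A7, CYP2A13, CYP2B6, CYP2C8 and CYP2R1. The first 3 are close copies on chromosome 19 and are set side by side because they carry the string at the same distance from the start, from chr19:40850470-40850528 (CYP2A6, minus strand), chr19:40882254-40882312 (CYP2A7, minus strand) and chr19:41088370-41088428 (CYP2A13).
CYP2A6: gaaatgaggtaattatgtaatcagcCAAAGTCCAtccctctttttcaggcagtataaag
CYP2A7: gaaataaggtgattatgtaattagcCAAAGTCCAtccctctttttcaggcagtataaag
CYP2A13: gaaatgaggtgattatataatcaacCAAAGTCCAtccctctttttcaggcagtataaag
The whole windows of CYP2A6 and CYP2A7 were identical at 95.7% of positions, and those of CYP2A6 and CYP2A13 at 71.3%. Short reads can be assigned to the wrong copy in such pairs, and the same holds for CYP21A2 and its pseudogene and within the CYP4F, CYP2D6 and CYP11B neighbourhoods. Peaks there are uncertain as to the copy. CYP3A7 and its readthrough gene CYP3A7-CYP3A51P start at the same place and have the same promoter window. They also share most of a 50 kb window, so they are not separate evidence.

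The lists held 23805 and 36302 peaks for PPARα, 24505 and 27544 for PPARα+ERα and 17457 and 23302 for PPARα+ERβ, in library order. CYP windows took 41 and 77 of them for PPARα, 49 and 59 for PPARα+ERα and 30 and 46 for PPARα+ERβ. Per 1000 peaks of a list this was 1.72 (Wilson 95% interval 1.27 to 2.34) and 2.12 (1.70 to 2.65) for PPARα. The libraries of PPARα+ERα gave 2.00 (1.51 to 2.64) and 2.14 (1.66 to 2.76), and those of PPARα+ERβ gave 1.72 (1.20 to 2.45) and 1.97 (1.48 to 2.63). All 6 intervals, which cover counting error only, overlapped.

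The group means were 1.92 ± 0.282, 2.07 ± 0.101 and 1.85 ± 0.181 CYP peaks per 1000 (SD, n = 2) for PPARα, PPARα+ERα and PPARα+ERβ. The exact two-sided permutation test over libraries gave p = 0.667 for PPARα+ERα against PPARα (a difference of 0.149) and for PPARα+ERβ against PPARα (-0.0754). PPARα+ERβ against PPARα+ERα, a difference of -0.225, gave p = 0.333 by the same exact test, the smallest p that 2 libraries against 2 allow. All 3 adjusted values were 0.667 by Benjamini-Hochberg, and the comparisons share libraries. The PPARα libraries overlapped both other groups, whereas both PPARα+ERα libraries stood just above both PPARα+ERβ libraries.

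**Figure D1:**
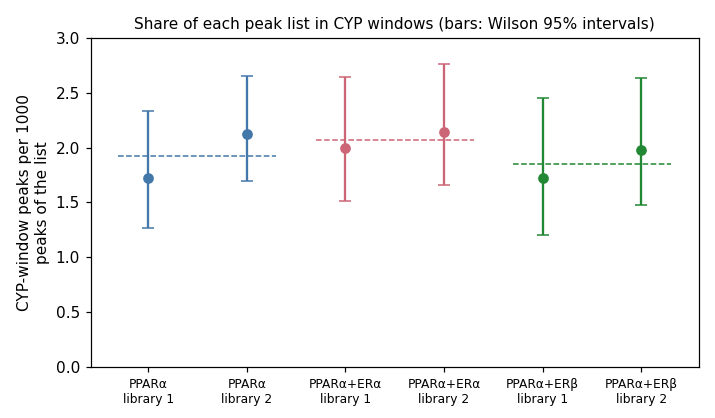
CYP-window peaks per 1000 peaks of each list (vertical axis) for the 6 libraries, points with Wilson 95% intervals as bars and dashed lines at the group means. The points lie between 1.72 and 2.14 and all intervals overlap.

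A region was called occupied in a group when each of its 2 libraries had a peak there. In PPARα cells 21 of the 54 CYP genes (38.9%) had an occupied region in the window, beside 60.5% of all protein-coding genes. In PPARα+ERα cells the count was 19 (35.2%), beside 38.0% of all genes, and in PPARα+ERβ cells it was 13 (24.1%), beside 46.6%. The CYP shares thus stood below those of protein-coding genes in general in PPARα and PPARα+ERβ, and near the general share in PPARα+ERα; these gaps were not tested, since genes are not replicates. The median CYP window was close in size to that of other genes, at 121.9 kb against 124.2 kb.

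The PPARα count depended on which library was read. Library 2 alone had a peak in the windows of 46 CYP genes (85.2%), beside 83.8% of all genes, whereas library 1 alone had one for 27 (50.0%), beside 69.2%. In PPARα+ERα the single libraries gave 29 genes (53.7%, beside 68.8% of all) and 36 (66.7%, beside 72.7%). In PPARα+ERβ they gave 25 (46.3%, beside 62.5%) and 31 (57.4%, beside 73.1%). With all lists cut to the 17457 highest-ranked peaks, the group counts became 11 in PPARα (20.4%, beside 40.6%), 12 in PPARα+ERα (22.2%, beside 28.2%) and 11 in PPARα+ERβ (20.4%, beside 42.1%), so the 3 groups no longer differed by more than 1 gene. In full, PPARα library 2 was the only list of the 6 in which the CYP share was not below the general one.

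Across the 3 groups 31 CYP genes had an occupied region in at least 1, beside 75.7% of all genes. Occupied in PPARα and PPARα+ERβ but not in PPARα+ERα were 8 genes (14.8%, beside 20.5% of all genes), CYP2E1, CYP2R1, CYP2W1, CYP4B1, CYP4F3, CYP4F8, CYP4F12 and CYP51A1. Only PPARα+ERα occupied the windows of 10 genes (18.5%, beside 8.37%), CYP2B6, CYP2J2, CYP4F2, CYP4F11, CYP4F22, CYP4X1, CYP4Z1, CYP26B1, CYP27A1 and CYP27C1. Only PPARα occupied those of 4 genes (7.41%, beside 13.2%), CYP2A6, CYP2A7, CYP19A1 and CYP46A1, and 0 were occupied in PPARα+ERβ alone, beside 4.08%. PPARα and PPARα+ERα but not PPARα+ERβ occupied 4 windows, at different regions (7.41%, beside 7.57%), those of CYP2C19, CYP2U1, CYP7A1 and CYP7B1. Each of the 3 groups had at least 1 occupied region in the windows of 5 genes (9.26%, beside 19.2%), CYP1B1, CYP20A1, CYP24A1, CYP27B1 and CYP39A1, though never the same region in all 3. Being occupied in 1 group and not in another is a matter of a called peak, and such differences for single genes were not tested.

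**Figure D2:**
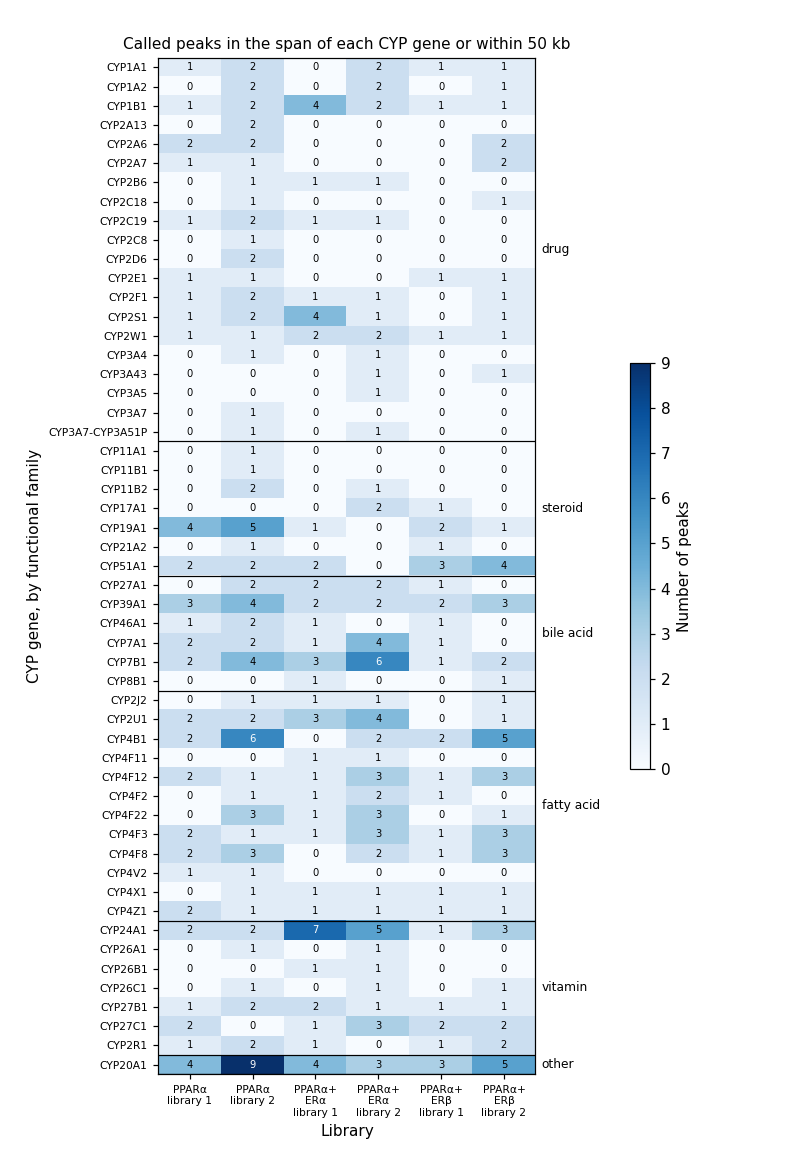
Number of called peaks in the span or within 50 kb (colour and digits) of each CYP gene shown (rows, by functional family) in the 6 libraries (columns). CYP20A1 and CYP24A1 reach the highest counts, 9 and 7.

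Of the 192 CYP regions, 123 (64.1%) had a peak in a single library, beside 60.1% of all regions. Occupied in at least 1 group were 55, of which 42 were occupied in 1 group and 13 in 2. All 13 (23.6% of the 55) were shared by PPARα and PPARα+ERβ, beside 21.9% of all regions occupied in any group. No CYP region was occupied in both PPARα and PPARα+ERα, beside 0.554% of all, or in all 3 groups, beside 0.413%, and none had a peak in all 6 libraries.

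Among regions with a peak in any of the 4 libraries compared, 27 of 170 (15.9%) had peaks in both PPARα and neither PPARα+ERα library, beside 20.0% of all such regions. The opposite pattern, both PPARα+ERα and neither PPARα library, held for 23 (13.5%), beside 10.1%. Against PPARα+ERβ, 6 of 114 CYP regions (5.26%) were found in both PPARα libraries only, beside 10.2%, and 2 (1.75%) in both PPARα+ERβ libraries only, beside 2.75%. Of the 140 regions of the PPARα+ERα and PPARα+ERβ lists, 21 (15.0%) were found in both of the former and neither of the latter, beside 11.4%, and 14 (10.0%) the other way round, beside 12.7%. In CYP windows as over the genome, then, PPARα and PPARα+ERβ differed at fewer regions than PPARα+ERα and either of them. These counts depend on the libraries read: PPARα and not PPARα+ERβ rose from 6 to 46 and 14 without PPARα library 1 and 2, and to 10 and 12 without PPARα+ERβ library 1 and 2. PPARα+ERβ and not PPARα went from 2 to 17 and 10 without PPARα+ERβ library 1 and 2. Without PPARα+ERα library 1 and 2, the regions of that group absent from PPARα became 56 and 48, and those absent from PPARα+ERβ 54 and 47. Limiting peaks to low local background took PPARα and not PPARα+ERα from 27 to 3, and PPARα+ERβ and not PPARα+ERα from 14 to 0. PPARα+ERα and not PPARα went from 23 to 15, and PPARα+ERα and not PPARα+ERβ from 21 to 14. That limit kept 16.0% and 12.8% of all peaks in the PPARα lists and 21.7% and 24.8% in the PPARα+ERβ lists. In the PPARα+ERα lists it kept 74.3% and 76.9%, so it removed unlike shares of the lists. Shares over all regions are not given for counts with a library left out or with this limit. Whether CYP windows changed more than others there cannot be told.

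The kind of site differed between the lists as well. The local background of a summit was recovered from the authors' fold and −log10 p, and is given as a multiple of the lowest level in the list. Its median over CYP peaks was 14.7 and 15.7 for the PPARα libraries, 2.19 and 2.15 for PPARα+ERα and 12.4 and 11.3 for PPARα+ERβ. The median number of fragments at the summit was 34 and 47, 10 and 10, and 28.5 and 32. Peaks of PPARα+ERα libraries in CYP windows thus had few fragments and a low background, and so did their whole lists, with median fragments of 9 and 10 and background of 1.64 and 1.57. The other 4 lists had medians of 27 to 50 fragments and of 8.52 to 15.7. The median fold of CYP peaks was 5.33 and 5.64 in PPARα+ERα and 3.56 to 4.14 in the other libraries. Fragments scale with read depth, which is not given in the sources used here.

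The recovered background was nearly equal between libraries at most shared sites. Of 69 CYP regions with peaks in 2 or more libraries, the highest and lowest background lay within 1.1 times of each other in 56, with a median ratio of 1.02. The same held for 81.5% of all regions in 2 or more libraries. The control behind this background is not given in the sources used here. Lists called against a common control would show this agreement by construction, so it cannot be read as a property of the sites. The part of the background in the division between the groups was not tested. With peaks limited to a background of at most 3 times the lowest level, 6 CYP genes remained occupied in PPARα (11.1%, beside 15.6% of all genes), 15 in PPARα+ERα (27.8%, beside 30.5%) and 3 in PPARα+ERβ (5.56%, beside 14.03%).

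**Figure D3:**
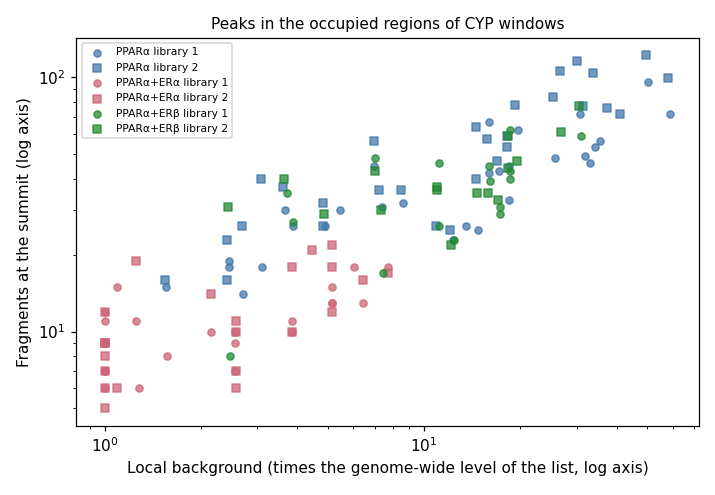
Fragments at the summit against local background (both log axes, background as a multiple of the lowest level in the list) for each peak in an occupied CYP region, by group (colour) and library (marker). Occupied PPARα+ERα regions span backgrounds of 1.00 to 7.71 with 5 to 22 fragments, and those of PPARα reach 58.9 and 122.

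Occupied regions were spread over the window. Of the length of the CYP windows, 53.1% lies over 10 kb outside a span and 30.02% inside. In PPARα 7 of the 29 occupied regions were inside a CYP span and 19 (65.5%) were over 10 kb outside it. In PPARα+ERα 6 of 23 were inside and 12 (52.2%) over 10 kb outside, and in PPARα+ERβ 3 of 16 were inside and 10 (62.5%) over 10 kb outside. A further protein-coding gene, and no CYP gene, held the summit at 9, 5 and 6 of the occupied regions of PPARα, PPARα+ERα and PPARα+ERβ, so a region in a CYP window may belong to a neighbour.

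Within 3 kb of an end of the span, CYP51A1 alone had an occupied region in PPARα (7.45% of all genes) and in PPARα+ERβ (5.42%), and CYP1B1 and CYP4F2 had one in PPARα+ERα (4.88%). At CYP51A1 and CYP4F2 that end was the one away from the start. CYP1B1 had no promoter window at hand, so its end was not placed. No CYP gene with a start in the promoter table had an occupied region within 3 kb of it, beside 4.68%, 3.28% and 3.72% of all such genes for PPARα, PPARα+ERα and PPARα+ERβ. A summit of any library came within 3 kb of a start at 8 of the 40 genes, beside 24.2% of all, and each was in 1 library only. Their folds ran from 3.82 at CYP2R1 to 9.75 at CYP3A43.

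**Figure D4:**
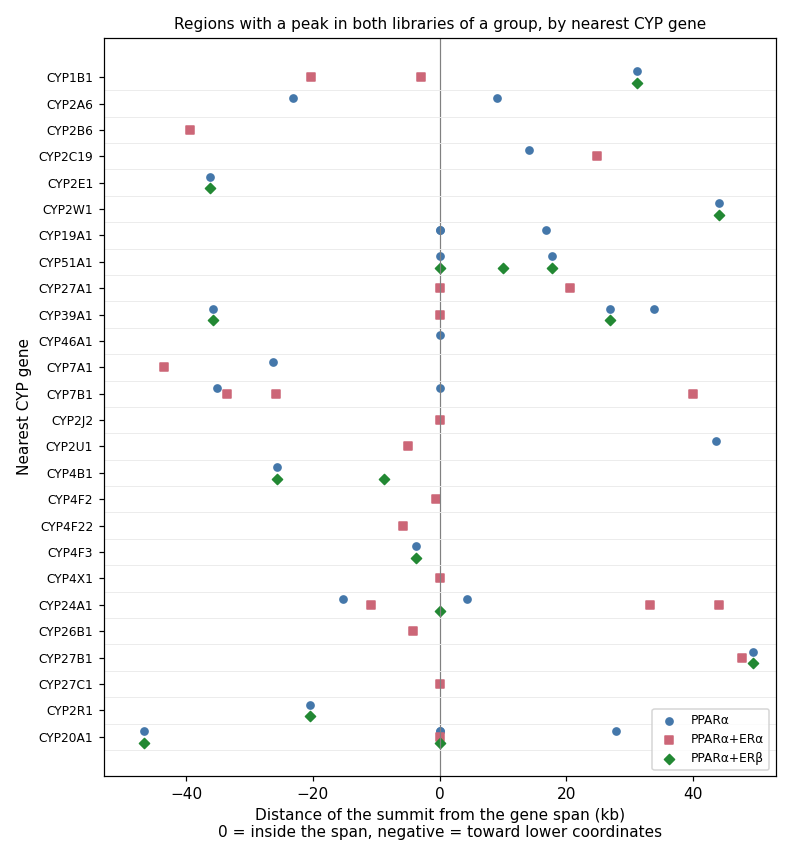
Distance in kb from the gene span (horizontal axis, 0 for a summit inside it, negative toward lower coordinates) of each occupied region, by nearest CYP gene (rows) and group (colour and marker). Most points lie over 10 kb from the span, and PPARα and PPARα+ERβ points often coincide while PPARα+ERα points stand apart.

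Folds given from here on are the authors' enrichment at the summit over its local background, in library order, and are not compared between lists. Coordinates are hg38. The drug-metabolising enzymes, which clear medicines and foreign compounds, were the largest family, with 21 genes. An occupied region was in the window of 6 of them in PPARα (28.6%), 3 in PPARα+ERα (14.3%) and 3 in PPARα+ERβ (14.3%). Of all genes the shares were 60.5%, 38.0% and 46.6%. Shares of this and the other families rest on few genes and were not tested. The family had 24.1 regions per Mb of window, beside 33.1 for all CYP windows and 36.0 for all protein-coding windows.

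CYP2A6, the main nicotine oxidase, had a region occupied in PPARα at chr19:40820158-40820549 (folds 5.77 and 9.54), where no other list had a peak. A further PPARα region lay between CYP2A6 and its copy CYP2A7 at chr19:40859381-40859709, with folds of 8.36 and 8.31, and PPARα+ERβ library 2 had a peak there with a fold of 5.71. Both stood at low background, 1.54 to 2.72, unlike most PPARα regions, and their assignment between the copies is uncertain.

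CYP2E1, which oxidises ethanol, had a single region in its window, 36.3 kb before the span at chr10:133490783-133491196. Both PPARα libraries (folds 7.39 and 3.23) and both PPARα+ERβ libraries (6.26 and 4.33) had a peak there, and neither PPARα+ERα library had one. CYP1B1, which hydroxylates estrogens, showed the division between groups within 1 window. PPARα and PPARα+ERβ shared chr2:38107033-38107397, with folds of 3.96 and 3.86 and of 2.70 and 2.60. PPARα+ERα occupied chr2:38064490-38065042, 2.88 kb outside the span, with folds of 4.66 and 6.02, and a site farther along in RMDN2 with folds of 4.66 and 7.05. No library of the other groups had a peak at either of these.

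CYP2B6, an enzyme controlled by the xenobiotic receptor CAR, was occupied only in PPARα+ERα, at chr19:40951705-40952045 with folds of 7.19 and 5.64 on 9 and 7 fragments. CYP2C19, which activates clopidogrel, had a PPARα region at chr10:94869497-94869842 (2.53 and 3.50) and a PPARα+ERα region 10.4 kb from it (5.04 and 4.93, on 6 fragments in each library). CYP2W1, an enzyme seen mostly in fetal and tumour tissue, shared a weak region of the neighbouring gene CHLSN between PPARα (2.92 and 2.83) and PPARα+ERβ (2.91 and 2.39).

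The CYP3A cluster includes CYP3A4, the enzyme that clears the largest number of medicines in adult liver. Its 5 genes share a block of 0.318 Mb on chromosome 7 with only 4 regions, each in 1 library, and none was occupied. The peaks numbered 1 in PPARα library 2, 2 in PPARα+ERα library 2 and 1 in PPARα+ERβ library 2, and 0 in the first library of each group. The highest fold, 9.75 on 14 fragments, was inside CYP3A43 at chr7:99830518-99830879.

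CYP1A1 and CYP1A2, targets of the dioxin receptor AHR, had 6 regions between them and none occupied. Both library 1 lists of PPARα (2.57) and PPARα+ERβ (2.36) had a peak at chr15:74694960-74695279 in EDC3, and both library 2 lists of these groups (4.31 and 4.26) at chr15:74703237-74703671. CYP2D6, CYP2F1, CYP2S1 and CYP2A13 had peaks but no occupied region. A peak of PPARα library 2 near CYP2F1 at chr19:41107744-41108099, had a fold of 11.9 on 40 fragments, and no other list had a peak there.

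The steroid family, with 7 genes that make steroid hormones and sterols, had an occupied region for 2 genes in PPARα, 0 in PPARα+ERα and 1 in PPARα+ERβ. In that order these were 28.6%, 0% and 14.3% of the family, beside 60.5%, 38.0% and 46.6% of all genes. CYP51A1, the lanosterol demethylase of cholesterol synthesis, had a region inside the gene near its far end at chr7:92112833-92113203. Its folds were 8.22 and 7.73 in PPARα and 8.54 and 6.74 in PPARα+ERβ, with no peak in PPARα+ERα. A region in LRRD1, 17.7 kb away at chr7:92151950-92152689, had folds of 6.56 and 5.63 in PPARα and of 4.45 and 3.10 in PPARα+ERβ. Between them chr7:92144635-92145203 was occupied in PPARα+ERβ (3.59 and 4.22) with no peak in the other 4 libraries.

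CYP19A1, the aromatase that makes estrogens, had 3 regions occupied in PPARα alone. In the span were chr15:51229391-51229912 (3.03 and 4.68) and chr15:51325850-51326220 (5.45 and 5.50, with 3.41 in PPARα+ERβ library 2), and in GLDN was chr15:51355222-51355541 (8.19 and 9.11 at a background of 2.45 and 2.41). The adrenal and gonadal enzymes CYP11A1, CYP11B1, CYP11B2, CYP17A1 and CYP21A2 had 1 to 3 regions each and no occupied one.

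The bile acid and oxysterol family, with 6 genes, had an occupied region for 4 genes in PPARα, 4 in PPARα+ERα and 1 in PPARα+ERβ. In that order these were 66.7%, 66.7% and 16.7% of the family, beside 60.5%, 38.0% and 46.6% of all genes. CYP7A1, the rate-limiting enzyme of bile acid synthesis, had a region occupied in PPARα 26.3 kb from the span, at chr8:58463797-58464297 with folds of 6.95 and 6.32, and PPARα+ERβ library 1 had a peak there with 5.39. PPARα+ERα occupied another site, chr8:58446472-58446794 in UBXN2B, with folds of 4.0 and 5.30. CYP7B1, of the alternative pathway, had 2 regions in PPARα and 3 in PPARα+ERα, none of them in common.

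CYP39A1, an oxysterol hydroxylase, had a region shared by PPARα and PPARα+ERβ 35.7 kb from the span at chr6:46513454-46513995. The folds were 9.0 and 9.99 in PPARα and 9.61 and 7.38 in PPARα+ERβ, on 45, 56, 48 and 43 fragments. Inside the gene, chr6:46631930-46632480 was occupied in PPARα+ERα only, with folds of 11.2 and 4.80 on 15 and 6 fragments. CYP27A1, the mitochondrial sterol hydroxylase, was occupied only in PPARα+ERα, inside the gene at chr2:218790357-218790714 (4.0 and 4.60) and 20.5 kb from it at chr2:218835565-218835932 (9.35 and 6.34). CYP46A1, the cholesterol hydroxylase of the brain, was occupied in PPARα inside the gene (3.02 and 3.79, with 3.76 in PPARα+ERβ library 1). CYP8B1, which directs synthesis to cholic acid, had a peak in 1 PPARα+ERα and 1 PPARα+ERβ library, at different sites.

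The fatty acid and eicosanoid family, with 12 genes, had an occupied region for 5 genes in PPARα, 7 in PPARα+ERα and 4 in PPARα+ERβ, at 34.6 regions per Mb. In that order these were 41.7%, 58.3% and 33.3% of the family, beside 60.5%, 38.0% and 46.6% of all genes. Only 3, 5 and 3 occupied regions lay behind these counts, because neighbouring genes share regions, CYP4X1 and CYP4Z1 among them. CYP4F3, CYP4F8 and CYP4F12, ω-hydroxylases of leukotrienes and other lipids, share the region chr19:15637010-15637437, 3.78 kb from CYP4F3, which had a peak in 5 of the 6 libraries. Its folds were 7.78 and 6.45 in PPARα, 3.37 in PPARα+ERα library 2, and 3.68 and 11.7 in PPARα+ERβ, all at a background of 2.41 to 2.57. This is the lowest background of any region shared by PPARα and PPARα+ERβ in CYP windows.

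Other CYP4F genes were occupied in PPARα+ERα only. CYP4F2, which hydroxylates vitamin K and arachidonic acid, and its neighbour CYP4F11 share chr19:15877230-15877596, 0.610 kb past the end of CYP4F2, with folds of 5.76 and 7.05. CYP4F22, a ceramide-forming ω-hydroxylase of skin, had chr19:15502470-15502801 with 7.19 and 7.05. CYP2J2, the arachidonic acid epoxygenase of heart and liver, had a site inside the gene at chr1:59932380-59932719 (4.40 and 4.20), and CYP4X1 at chr1:47036935-47037291 (5.76 and 4.23). No library of the other groups had a peak at these 4 sites, and the fragments behind them numbered 5 to 10.

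CYP4B1 had a region shared by PPARα (6.00 and 6.26) and PPARα+ERβ (3.37 and 5.02) at chr1:46773041-46773445. CYP2U1, a fatty acid hydroxylase, had a PPARα region in the neighbouring β-oxidation gene HADH at chr4:107996896-107997341 (2.69 and 6.01, with 3.96 in PPARα+ERβ library 2). PPARα+ERα occupied a site 5.05 kb before CYP2U1 at chr4:107926258-107926725 (4.80 and 7.26). CYP4V2 had a peak in each PPARα library, at different sites of FAM149A, and no occupied region.

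The vitamin family, with 7 genes, had an occupied region for 3 genes in PPARα, 4 in PPARα+ERα and 3 in PPARα+ERβ, at 42.9 regions per Mb. In that order these were 42.9%, 57.1% and 42.9% of the family, beside 60.5%, 38.0% and 46.6% of all genes. CYP24A1, which inactivates vitamin D, had 12 regions in its window and 2, 2, 7, 5, 1 and 3 peaks in the 6 libraries, more in each PPARα+ERα library than in any other. The highest folds among its occupied regions were at chr20:54207066-54207434, in PPARα+ERα (8.63 and 9.16 at a background of 1.00 in both). PPARα occupied chr20:54178137-54178546, 4.29 kb from the span (3.17 and 3.56), at a background of 50.3 and 49.5 and on 96 and 122 fragments. PPARα+ERβ library 2 had a peak there as well, with a fold of 2.53 on 91 fragments. PPARα+ERβ occupied chr20:54161912-54162235 inside the gene (3.46 and 3.23), where PPARα had no peak.

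CYP26B1, which degrades retinoic acid, had 1 region in its window, and it held the highest fold of any occupied PPARα+ERα region in CYP windows. At chr2:72124793-72125165, 4.19 kb beyond the far end of the gene, the folds were 8.06 and 13.1 on 11 and 19 fragments, and no other library had a peak. CYP27C1, a vitamin A desaturase, was occupied in PPARα+ERα inside the gene (4.66 and 4.12), with a peak of 7.87 in PPARα+ERβ library 1. CYP2R1, the vitamin D hydroxylase of liver, had a region in PDE3B shared by PPARα (4.14 and 4.99) and PPARα+ERβ (3.84 and 2.94).

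CYP27B1, which activates vitamin D, had neighbouring sites in AVIL. PPARα and PPARα+ERβ shared chr12:57816275-57816715, with folds of 3.89 and 4.52 and of 5.32 and 4.30, and PPARα+ERα occupied chr12:57814579-57814971, with 5.33 and 7.29, at a gap of 1.30 kb. Such closeness was looked for after these values were seen. Of the 23 regions occupied in PPARα+ERα, 4 lay within 5 kb of one occupied in PPARα (17.4%, beside 5.8% of all such regions), at CYP20A1, CYP27B1, CYP7B1 and CYP24A1, with gaps of 0.739, 1.30, 1.41 and 3.59 kb. The median gap was 55.1 kb, beside 47.6 kb for all such regions.

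CYP20A1, an orphan P450 with no settled substrate, had 15 regions and 4, 9, 4, 3, 3 and 5 peaks in the 6 libraries, or 89.8 regions per Mb. Inside the gene chr2:203267845-203268279 had a peak in 5 libraries, with folds of 9.80 and 11.0 in PPARα, 5.35 in PPARα+ERα library 2, and 11.4 in each PPARα+ERβ library. PPARα also occupied chr2:203298701-203299137 (6.72 and 13.3, with 6.74 in PPARα+ERβ library 2). PPARα+ERα occupied the site 0.739 kb from it, chr2:203299876-203300182 (5.98 and 7.88). In NBEAL1, chr2:203191983-203192400 was occupied in PPARα (3.83 and 5.46) and PPARα+ERβ (3.14 and 3.45) at a background of 30.2 to 30.9.

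CYP genes were also split by whether they lie in gene clusters or stand alone, a split chosen after the values were seen and not tested. The 54 windows merge into 35 blocks, of which 10 hold several CYP genes, 29 in all. Among the 25 genes alone in their block, 15 (60.0%) were occupied in PPARα, 12 (48.0%) in PPARα+ERα and 10 (40.0%) in PPARα+ERβ, at 39.2 regions per Mb. Among the 29 clustered genes the counts were 6 (20.7%), 7 (24.1%) and 3 (10.3%), at 24.1 regions per Mb. The lone genes were thus near the share of all protein-coding genes in PPARα, above it in PPARα+ERα and below it in PPARα+ERβ, and the clustered genes below it in all 3, while genes of 1 block share regions and are not independent.

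**Figure D5:**
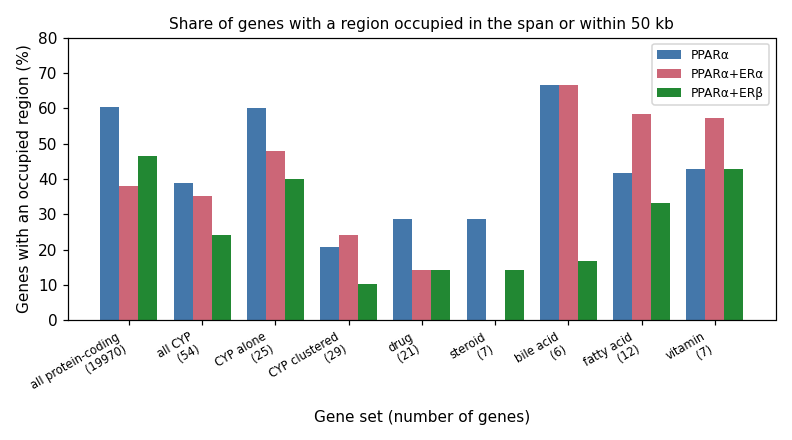
Percent of genes with a region occupied in the window (vertical axis) in each group (colour) for all protein-coding genes, all CYP genes, lone and clustered CYP genes and 5 CYP families, with the number of genes under each. Clustered CYP genes stand at 20.7%, 24.1% and 10.3%, and the bile acid genes at 66.7% in PPARα and PPARα+ERα.

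Genes that serve or control the P450s were read in the same way. Of 8 redox partners, 6 had an occupied region in PPARα, 4 in PPARα+ERα and 3 in PPARα+ERβ, and of 12 receptors and transcription factors that control CYP genes the counts were 9, 4 and 6, beside 60.5%, 38.0% and 46.6% of all genes. POR, the reductase that feeds electrons to every microsomal P450, had a region shared by PPARα (3.59 and 6.18) and PPARα+ERβ (5.06 and 4.18) at chr7:75933025-75933391. It had another in PPARα+ERα alone at chr7:75956402-75956744, with folds of 11.5 and 8.33. FDX1, the ferredoxin of mitochondrial P450s, was occupied only in PPARα+ERα, at chr11:110428089-110428481 (5.50 and 6.74).

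The cytochrome b5 genes CYB5A and CYB5B, and the mitochondrial FDX2, also had occupied regions in the span or within 3 kb. HNF4A, a receptor that keeps many hepatic CYP genes active, had 2 sites near or in the span in PPARα+ERα, with folds of 9.24 and 8.74 at chr20:44417971-44418300 and of 6.17 and 4.96 at chr20:44411892-44412306, and a separate PPARα site at chr20:44409465-44409854 (2.92 and 3.78, with 2.53 in PPARα+ERβ library 2). The bile acid receptor NR1H4 had 2 such sites in PPARα+ERα (9.35 and 5.64, and 10.8 and 7.75, the latter with 5.27 in PPARα+ERβ library 2). AHR was occupied in PPARα+ERβ (4.78 and 5.25, with 4.46 in PPARα library 1), and NR5A2, an activator of CYP7A1, in PPARα (8.19 and 8.35) at a site where PPARα+ERα library 1 (7.19) and PPARα+ERβ library 1 (8.20) also had a peak. Both P450 genes without a CYP symbol, PTGIS and TBXAS1, which make prostacyclin and thromboxane, had an occupied region in PPARα.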

How the data were processed

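Per the labels, chromatin of HepG2 cells was precipitated with an antibody to PPARα; 6 of the 7 samples had a peak list, and the sample without antibody was not analysed here. ChIPseeker 1.18.0, DiffBind 2.16, HOMER 4.11, MACS2 2.2.7.1, Bowtie 1.0.1 and Trim Galore 0.6.4 stand in the submitters' processing notes, with hg38 and GRCh38.p13; what each did, and the control, are not given in the sources used here. The authors called peaks per library. The deposited fold is a ratio of summit to local background. The deposited −log10 p and −log10 q belong to the summit, and the authors' score is derived from −log10 q. Fragments and local background were recovered from fold and −log10 p under the peak caller's Poisson model, within 0.001 for 100% of peaks, and scaled to the lowest 0.1% of a list.

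Peaks of all libraries overlapping by 1 base were merged (SciPy 1.17.1, NumPy 2.4.6 and pandas 2.3.3 in Python 3.11.15), and the merging and counting were tested on simulated data. Genes and starts are RefSeq GRCh38.p14, whose main chromosomes have the coordinates of hg38. Libraries are numbered in order of deposit. Two-sided exact permutation tests compared groups, with Benjamini-Hochberg adjustment. Alternatives were a 10 kb window, −log10 q of at least 5, 50% overlap, equal list lengths of 17457 peaks, a local background limit of 3, and leaving out each library. Wy13643 and Wy14643 both occur in the labels for the same compound, given here as WY14643.

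CYP genes were named with values where they held 1 of the 4 highest-ranked occupied regions of a group in their family (by the lower within-list percentile of −log10 q), or a region occupied within 3 kb of an end or over a promoter. Partners and regulators were named for regions in the span or within 3 kb. Further genes were named after their values were seen. All 76 listed symbols were found in the gene table. The members, lists and tests were chosen with earlier results of these data known, and some CYP genes are not reported here.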

Additional observations from a re-analysis of the deposited data

How the results depend on the processing

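No paired analysis was possible because the library numbers follow the order of deposit only. The 12 results (3 differences in CYP share, 3 counts of occupied genes, 6 counts of differing regions) were recomputed under 5 alternatives and with each of the 6 libraries left out, and the cause of each change below was not tested. With 50% overlap all 12 stayed within 1.5 times and kept their direction. With the 10 kb window the PPARα+ERβ minus PPARα difference turned to 0.183 (exact permutation p = 0.333), occupied genes fell to 9, 11 and 6 (PPARα, PPARα+ERα, PPARα+ERβ), and regions in both PPARα and neither PPARα+ERα or PPARα+ERβ library to 8 and 1, in both PPARα+ERα and neither PPARα or PPARα+ERβ library to 11 and 10, and in both PPARα+ERβ and neither PPARα+ERα library to 4. The occupied genes were then 16.7%, 20.4% and 11.1% of CYP genes, beside 34.1%, 21.0% and 25.3% of all genes. With −log10 q of at least 5, occupied genes were 18 in PPARα (33.3%, beside 52.5% of all genes). They were 10 in PPARα+ERα (18.5%, beside 25.01%) and 8 in PPARα+ERβ (14.8%, beside 36.6%). In each group the share of all genes was also lower than at the main setting. PPARα+ERα regions absent from PPARα and from PPARα+ERβ were then 11 and 11. With lists of equal length, occupied genes were 11 in PPARα, 12 in PPARα+ERα and 11 in PPARα+ERβ, PPARα regions absent from PPARα+ERα 16 and the reverse 14. At low background, occupied genes were 6 in PPARα and 3 in PPARα+ERβ; PPARα regions absent from PPARα+ERα and PPARα+ERβ were 3 and 2, PPARα+ERα regions absent from PPARα 15, and PPARα+ERβ regions absent from PPARα and PPARα+ERα 0 and 0. Leaving out 1 library in turn, where the lone library then defines its group, gave 21 to 46, 19 to 36 and 13 to 31 occupied genes, and differences of -0.0503 to 0.348 (PPARα+ERα minus PPARα), -0.275 to 0.124 (PPARα+ERβ minus PPARα) and -0.352 to -0.0967 (PPARα+ERβ minus PPARα+ERα). Regions in both libraries of one group and neither of the other ranged from 27 to 74 (PPARα, not PPARα+ERα), 6 to 46 (PPARα, not PPARα+ERβ), 23 to 56 (PPARα+ERα, not PPARα), 21 to 54 (PPARα+ERα, not PPARα+ERβ), 2 to 17 (PPARα+ERβ, not PPARα) and 14 to 42 (PPARα+ERβ, not PPARα+ERα). For region counts under these alternatives no share over all regions is given, so a change particular to CYP windows cannot be told. The lists end at the authors' threshold, so a site without a peak may hold PPARα below it; read depth was not given, and 2 libraries a group cannot bring p below 0.333 by the exact permutation test.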
